A study of Homo sapiens with 19 samples.

Results

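The matrix metalloproteinases (MMPs), the ADAMTS proteases, the ADAMTS-like proteins (ADAMTSL) and the tissue inhibitors of metalloproteinases (TIMPs) were followed in HepaRG cells, an established human hepatic carcinoma line that can be matured into hepatocyte-like and biliary-like cells. Members were chosen by a rule on gene symbols, which uses no measured value. The rule matched 52 symbols, of which MMP23A was left out as a transcribed pseudogene. This left 51 of 78894 genes, made up of 23 MMP, 19 ADAMTS, 5 ADAMTSL and 4 TIMP genes.

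MMPs are zinc-dependent endopeptidases that are made as inactive proenzymes and, once activated, cut collagens, laminins, proteoglycans and other proteins outside the cell. ADAMTS proteases are secreted relatives that carry thrombospondin repeats, and ADAMTSL proteins keep those repeats but lack the protease domain. TIMPs bind the active site of MMPs and of some ADAMTS proteases and block it, and in liver the balance of these families sets how scar matrix is laid down and removed.

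All 7 groups were differentiated HepaRG cells and gave 19 total RNA libraries in 2 batches. Batch 1 held cells transfected with siRNA against ADAR (3 libraries), siRNA against ADARB1 (3 libraries) or a negative control siRNA, siNC (3 libraries), at 20 nM. Batch 2 held interferon alpha, IFNa, at 1000 U/mL (2 libraries), the kinase inhibitor BX795 at 1 µM together with ADAR siRNA (2 libraries), BX795 alone (3 libraries) and its own siNC controls (3 libraries). Both compounds were added with the transfection and kept through media changes at 24 h and 48 h. The labels leave it unstated whether siNC was present in the wells that got IFNa or only BX795. Comparisons with these wells may therefore also differ in the presence of an siRNA, which cannot be told apart from the agents. ADAR and ADARB1 encode enzymes that turn adenosine into inosine in double-stranded RNA, while BX795 blocks TBK1 and IKK epsilon, which act downstream of cellular nucleic acid sensors. The design asks which genes follow the loss of either enzyme, the interferon, the inhibitor, and the loss of ADAR while the inhibitor is present. Nothing in the labels tells if replicates are separate cultures, and p-values therefore measure only the spread between libraries.

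Total counts were 42.7 to 77.1 M per library in batch 1 and 13.1 to 34.7 M in batch 2. ADAR averaged 59.6 ± 4.84 CPM, counts scaled to library size, with ADAR siRNA and 239.6 ± 1.30 CPM with siNC (SD, n = 3 each), and ADARB1 averaged 9.96 ± 0.498 CPM with ADARB1 siRNA and 29.9 ± 1.07 CPM with siNC (n = 3 each). Summed levels of 10 hepatocyte markers were 10160 to 16980 CPM in batch 2 and 46600 to 67380 CPM in batch 1, with CPM scaled within each batch. The endothelial marker CLEC4G had 0 counts in every group, and the biliary marker EPCAM had 0 counts in every group but that with ADARB1 siRNA. The batch 2 controls also stood apart from the other batch 2 libraries in base composition. The GC trend, taken as the mean log2 level of the genes above 60% GC less the mean of those below 40% GC after centring in each batch, was 0.27, 1.03 and 0.86 in these controls. It was -0.37 and 0.09 with IFNa, 0.01 and -0.52 with BX795 and ADAR siRNA, -0.22, -0.64 and -0.52 with BX795, and -0.09 to 0.11 over the 9 libraries of batch 1. Most batch 2 fold changes of called genes are given with the value after a correction for GC content, named GC-corrected.

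Of the 51 members, 33 passed the filter on low counts in batch 1 and 31 in batch 2, 30 of them in both. ADAMTS1, ADAMTS4 and TIMP3 were tested in batch 1 alone and MMP11 in batch 2 alone, and 17 members were tested in neither batch and had at most 109 counts over all 19 libraries. These 17 included the collagenases MMP1 (14 counts in all), MMP8 (7 counts) and MMP13 (61 counts), which cut fibrillar collagen, the gelatinase MMP9 (22 counts) and the macrophage elastase MMP12 (42 counts). TIMP4 had 58 counts over all libraries and was not tested, and MMP26 had 0 counts, so nothing could be detected for it at this depth. In batch 2, MMP10 passed the filter only through the groups given BX795 and MMP11 only through siNC. Each was high in the groups that let it pass, so its calls are not independent of the filter.

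TIMP1 and TIMP2 had the highest levels per kb of exon among all members in both sets of controls. TIMP1, which blocks most secreted MMPs, stood at 155.1 ± 8.99 CPM per kb in siNC of batch 2 and at 210.5 ± 12.7 CPM per kb in siNC of batch 1 (SD, n = 3 each). TIMP2, which also bridges MMP14 and the MMP2 proenzyme at the cell surface, stood at 87.7 ± 3.09 CPM per kb in siNC of batch 2 and at 65.5 ± 0.762 CPM per kb in siNC of batch 1. The highest protease was MMP14, a membrane-anchored collagenase that activates the MMP2 proenzyme, at 68.5 ± 10.5 CPM per kb in siNC of batch 2 and 36.1 ± 0.955 CPM per kb in siNC of batch 1. In batch 1 the next were MMP15 (16.9 CPM per kb), ADAMTSL4 (12.3 CPM per kb) and MMP7 (10.2 CPM per kb), whose ranges over libraries did not overlap. Per kb of the longest transcript the order was ADAMTSL4 (18.3 CPM per kb), MMP7 (17.8 CPM per kb) and MMP15 (17.5 CPM per kb). In batch 2 they were MMP7 (35.2 CPM per kb), ADAMTSL4 (25.4 CPM per kb) and MMP15 (25.2 CPM per kb), and the ranges of ADAMTSL4 and MMP15 overlapped. The highest ADAMTS was ADAMTS2 in siNC of batch 2, at 18.7 ± 2.11 CPM per kb, and ADAMTS7 in siNC of batch 1, at 4.52 ± 0.142 CPM per kb. ADAMTS2, ADAMTS7 and ADAMTS9 overlapped in range in batch 2, where per kb of the longest transcript ADAMTS7 (25.5 CPM per kb) and ADAMTS9 (25.1 CPM per kb) stood above ADAMTS2 (24.1 CPM per kb). The batches were scaled separately, so levels were not tested between them.

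**Figure D1:**
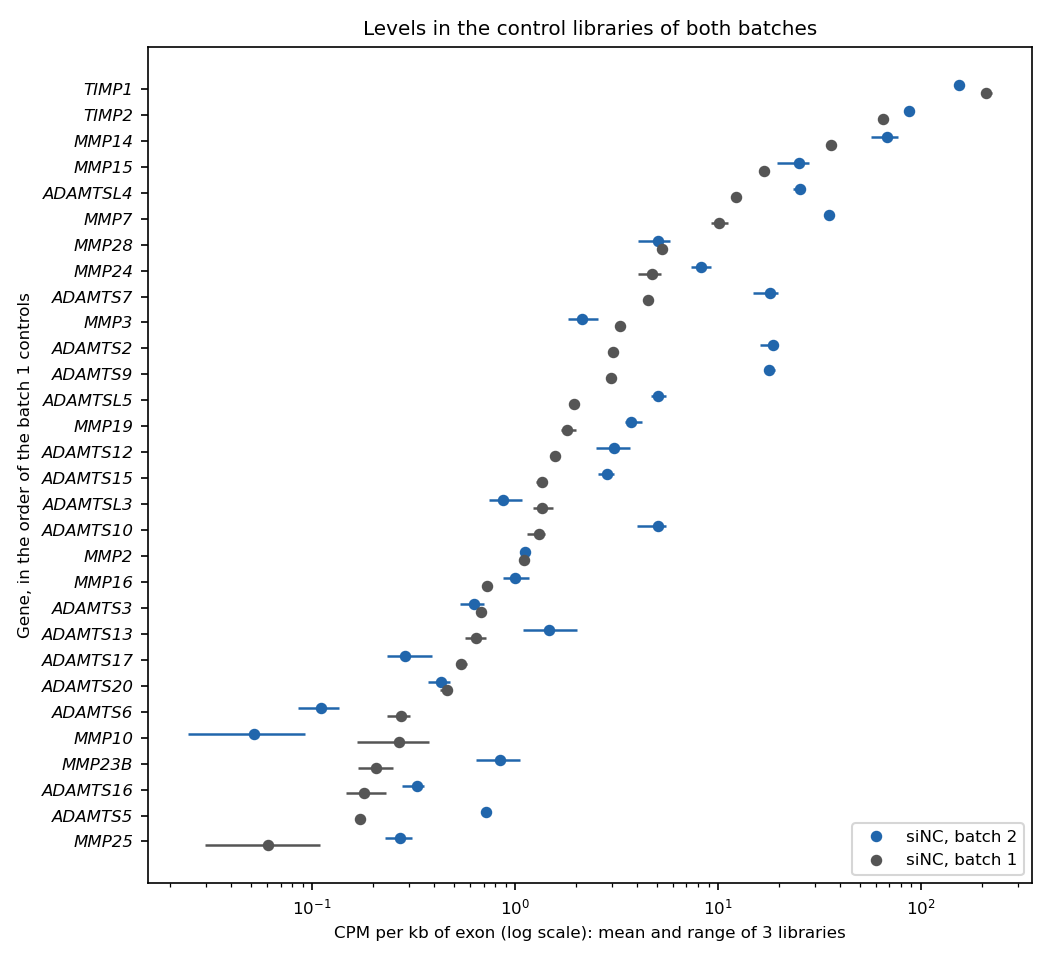
Levels of the 30 members that reached 0.1 CPM per kb of exon in either set of control libraries, on a log axis. Points are means and lines the range of 3 siNC libraries, with batch 2 above batch 1 for each gene. TIMP1, TIMP2 and MMP14 lead in both batches.

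Several members are neighbours in the genome. On chromosome 11 of GRCh38.p14, 9 MMP genes (MMP7, MMP20, MMP27, MMP8, MMP10, MMP1, MMP3, MMP12 and MMP13) lie between 102520508 and 102955732, and of these MMP3, MMP7 and MMP10 were tested. ADAMTS1 and ADAMTS5 lie between 26835755 and 26967088 on chromosome 21. RefSeq promoters of this build were at hand for 32 of the 51 members, as the 250 bases before the start of each gene. The AP-1 motif TGANTCA, searched on both strands, was found in 4 of the 32 (ADAMTS12, MMP10, MMP20 and MMP7) and in 6.6% of 27305 promoters. The interferon-stimulated response element (ISRE) was found in 1 of the 32 (ADAMTSL1) and in 3.07% of all promoters, and the interferon-activated site TTCNNNGAA in 0 of the 32 and in 6.78% of all promoters. The 3 matched promoters of tested members are shown, with the AP-1 match in capitals, as all 3 genes were called with BX795. So were 61.3% of tested members and 42.1% of all genes. MMP10 and ADAMTS12 were higher and MMP7 lower, and the ADAMTS12 call ended without BX795 replicate 2. ADAMTS12 was also called after ADAR siRNA, beside 37.8% of all genes. The promoters are all on the minus strand, at chr11:102780629-102780878 for MMP10, chr11:102530748-102530997 for MMP7 and chr5:33891991-33892240 for ADAMTS12.
MMP10: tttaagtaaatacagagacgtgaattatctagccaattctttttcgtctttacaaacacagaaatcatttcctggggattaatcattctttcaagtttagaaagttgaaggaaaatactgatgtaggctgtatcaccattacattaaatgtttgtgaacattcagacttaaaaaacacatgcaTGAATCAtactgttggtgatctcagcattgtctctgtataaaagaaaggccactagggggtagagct
MMP7: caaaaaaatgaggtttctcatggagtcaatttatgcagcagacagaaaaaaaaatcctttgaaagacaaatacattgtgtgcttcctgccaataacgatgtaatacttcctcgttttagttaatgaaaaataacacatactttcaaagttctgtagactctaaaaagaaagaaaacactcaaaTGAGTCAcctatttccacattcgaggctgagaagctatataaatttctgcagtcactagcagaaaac
ADAMTS12: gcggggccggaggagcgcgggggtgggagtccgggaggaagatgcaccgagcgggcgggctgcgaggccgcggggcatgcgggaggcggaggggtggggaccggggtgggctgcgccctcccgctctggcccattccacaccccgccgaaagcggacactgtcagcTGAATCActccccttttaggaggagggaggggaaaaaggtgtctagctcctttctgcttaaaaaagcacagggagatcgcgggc
The match began 67 bases before the start in both MMP10 and MMP7 and 84 bases before it in ADAMTS12. A match is a description of these letters and no evidence of binding.

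After ADAR siRNA, more members rose than fell. Of the 33 tested members, 15 rose and 4 fell against siNC, which is 57.6% called, beside 37.8% of all 21747 genes tested (20.2% higher and 17.6% lower). The median log2 fold change was 0.14 for the members and -0.01 for all genes. MMP19, ADAMTS12, ADAMTS10, MMP3, ADAMTS9, MMP14, TIMP2 and TIMP1 rose, whereas MMP2, MMP16, ADAMTS2 and ADAMTS5 fell.

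MMP3, stromelysin 1, a broad matrix protease that also activates other MMP proenzymes, had 10.75, 10.5 and 10.3 CPM with ADAR siRNA, against 7.12, 6.55 and 6.67 CPM with siNC. Every ADAR siRNA library lay above every control, and the log2 fold change was 0.63 ± 0.08 (SE; adjusted p = 1.51e-05). MMP14 had 203.4, 216.6 and 208.7 CPM with ADAR siRNA and 157.5, 160.0 and 165.8 CPM with siNC, without overlap, a log2 fold change of 0.38 ± 0.04 (adjusted p = 1.98e-06). MMP19, which cuts basement membrane proteins, had 15.4, 17.0 and 17.1 CPM with ADAR siRNA and 8.15, 7.90 and 9.36 CPM with siNC. Its log2 fold change of 0.95 ± 0.07 (adjusted p = 1.72e-07) is a rise of 1.94 times (95% interval 1.75 to 2.15).

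MMP2, gelatinase A, which cuts basement membrane collagen, fell to 4.18, 4.03 and 3.65 CPM with ADAR siRNA, against 5.36, 5.37 and 5.59 CPM with siNC (log2 -0.46 ± 0.12, adjusted p = 0.00766). Its activator MMP14 and its partner TIMP2 thus had higher RNA levels in the same libraries in which MMP2 was lower. Of the 5 tested membrane-type MMPs, MMP14, MMP15 and MMP25 rose and MMP16 fell. MMP25 had 0.997, 0.522 and 0.738 CPM with ADAR siRNA and 0.122, 0.181 and 0.450 CPM with siNC, and the counts of its antisense neighbour MMP25-AS1 were 2350% of its own in batch 1. No strand setting of the counting was stated, so reads of such pairs could not be told apart.

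Among the ADAMTS genes, ADAMTS12, which cuts the cartilage matrix protein COMP and, like ADAMTS7, carries a mucin-like stretch, had the smallest p. It had 29.5, 29.5 and 28.3 CPM with ADAR siRNA and 14.5, 15.8 and 16.0 CPM with siNC. The groups were far apart, with a log2 fold change of 0.91 ± 0.06 (adjusted p = 1.71e-08), a rise of 1.88 times (95% interval 1.74 to 2.03). ADAMTS10, which binds fibrillin microfibrils, had 11.8, 14.1 and 12.4 CPM with ADAR siRNA and 6.56, 7.81 and 8.01 CPM with siNC (log2 0.77 ± 0.09, adjusted p = 1.04e-05). ADAMTS9, which cuts versican, rose to 46.3, 45.3 and 44.2 CPM with ADAR siRNA, against 30.2, 31.7 and 33.2 CPM with siNC (log2 0.51 ± 0.04, adjusted p = 3.55e-07).

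ADAMTS2 and ADAMTS5 went the other way. ADAMTS2, which removes the amino-terminal propeptide of fibrillar procollagens, fell to 21.1, 20.5 and 19.02 CPM with ADAR siRNA, against 26.3, 25.8 and 27.15 CPM with siNC (log2 -0.39 ± 0.05, adjusted p = 1.35e-05). ADAMTS5, an aggrecan- and versican-cutting protease, had 1.19, 0.919 and 0.579 CPM with ADAR siRNA and 1.497, 1.60 and 1.59 CPM with siNC (log2 -0.79 ± 0.22, adjusted p = 0.0101). Its chromosome 21 neighbour ADAMTS1 was at 0.482, 0.522 and 0.339 CPM with ADAR siRNA and at 0.0871, 0.181 and 0.212 CPM with siNC. It was called higher (1.46 ± 0.48), so these neighbours differed in sign.

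TIMP2 had 476.3, 445.8 and 458.4 CPM with ADAR siRNA and 364.0, 371.2 and 371.6 CPM with siNC (log2 0.32 ± 0.04, adjusted p = 1.28e-05). TIMP1 had 354.9, 386.1 and 395.0 CPM with ADAR siRNA and 306.6, 345.2 and 321.2 CPM with siNC (log2 0.22 ± 0.05, adjusted p = 0.00424). Both inhibitors were higher in every ADAR siRNA library than in any control. TIMP3, which binds to the matrix itself, had 52 counts in all with ADAR siRNA and 63 counts with siNC, and its log2 fold change of -0.10 ± 0.42 (adjusted p = 0.882) leaves a range of 0.53 to 1.65 times.

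Of the 19 calls after ADAR siRNA, 15 held with each library left out in turn. MMP15 (highest adjusted p 0.0669), MMP25 (0.0698), ADAMTS1 (0.104) and ADAMTS15 (0.139) did not. The libraries whose removal ended the call were siNC replicates 1 and 2 and ADAR siRNA replicate 2 for MMP15, siNC replicate 1 and ADAR siRNA replicate 1 for MMP25, replicates 1 and 2 of both groups for ADAMTS1, and any of the 6 libraries for ADAMTS15. ADAMTS15 also lost its call after GC correction (adjusted p = 0.0546).

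Genes that act with these families changed widely in the same libraries. Of 14 tested genes for the activation and clearance of proteases, 6 rose and 6 fell after ADAR siRNA. SERPINE2, a secreted inhibitor of serine proteases, rose by 1.01 ± 0.08 on the log2 scale, while BSG, the MMP inducer basigin, fell by 0.71 ± 0.04. Of 19 tested substrates, 9 rose and 2 fell, with THBS1, thrombospondin 1, at 1.47 ± 0.03, the small proteoglycan LUM at 0.97 ± 0.05 and the fibrillar collagen COL3A1 at -1.46 ± 0.06. Of 13 transcription factors known to act on MMP promoters, 8 rose and 3 fell, led by ETS1 (0.58 ± 0.05), ETS2 (0.47 ± 0.04) and RUNX2 (-0.60 ± 0.05). Of 8 related ADAM and ADAMTS-like genes, 5 rose and ADAM17 fell (-0.48 ± 0.04). The shares called were 85.7%, 57.9%, 84.6% and 75.0% of these 4 lists, beside 37.8% of all genes. The lists were chosen with earlier results of these data known, so here and below their shares are descriptions and not independent tests.

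Levels of other cell type markers moved with these changes. The summed level of 8 biliary and progenitor markers was 987 to 1022 CPM with ADAR siRNA and 498 to 537 CPM with siNC, with 6 of 6 tested genes higher. That of 10 mesenchymal markers, which include the substrates COL1A1, COL3A1, LUM and DCN, was 197 to 203 CPM with ADAR siRNA and 155 to 166 CPM with siNC. Of 9 tested mesenchymal genes 6 were called higher and 1 lower. The hepatocyte sum was 46600 to 49580 CPM with ADAR siRNA and 62550 to 67380 CPM with siNC, with 2 of 10 genes called higher and 6 lower. The endothelial sum was 118.0 to 138.8 CPM with ADAR siRNA and 139.7 to 153.6 CPM with siNC. Of 3 tested endothelial genes 1 was called higher and 1 lower. The part of these shifts in the protease results was not tested, and in bulk RNA fewer cells of a type and less RNA per cell cannot be told apart.

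**Figure D2:**
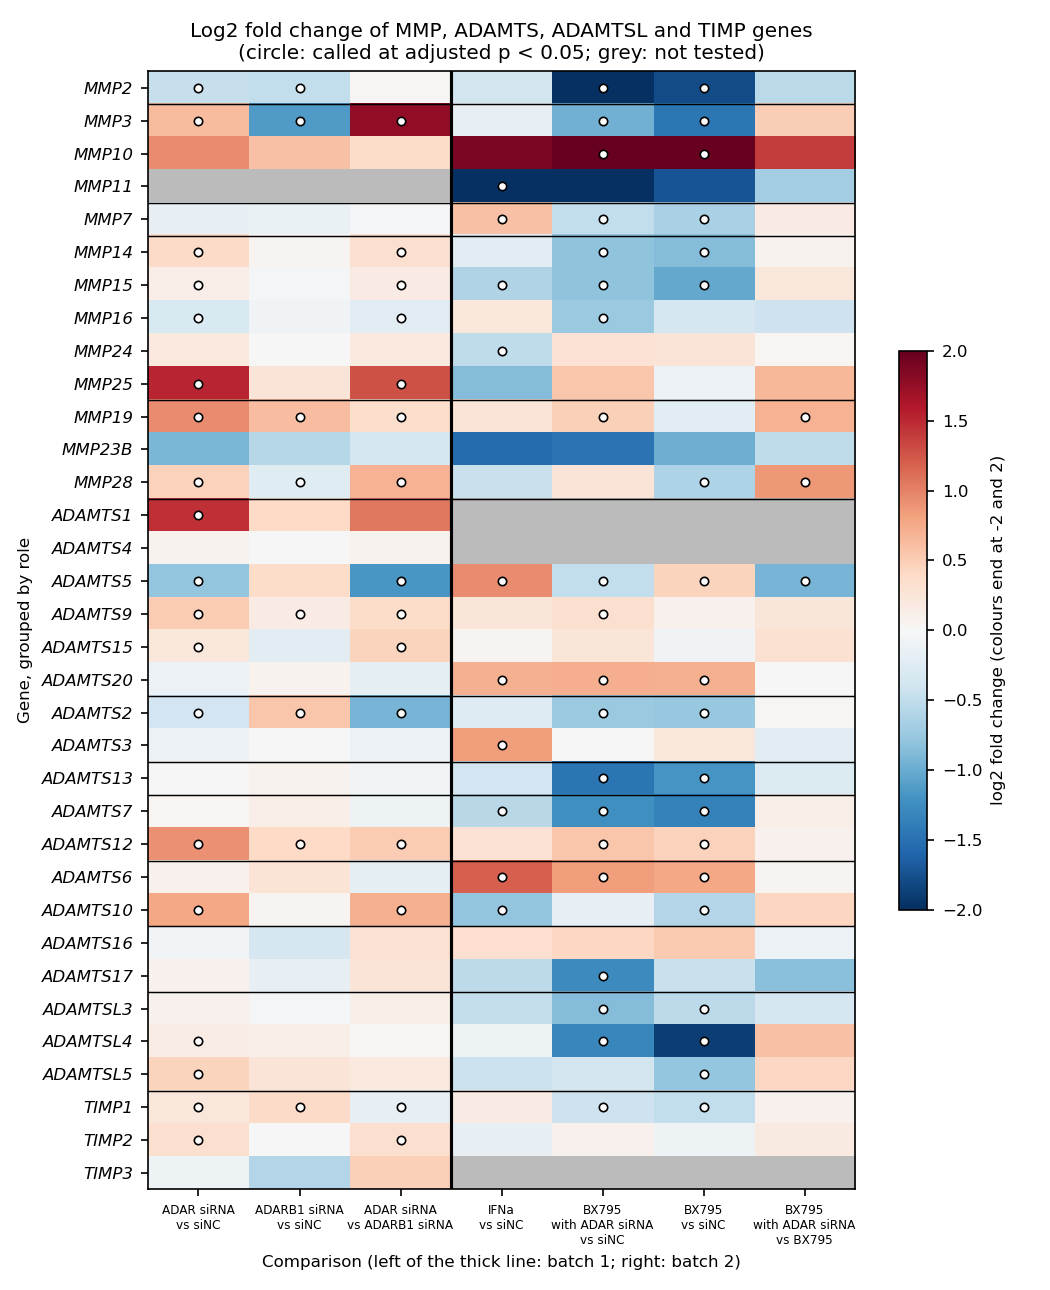
Log2 fold changes of the members tested in at least 1 batch (rows, grouped by role) in the 7 comparisons within a batch (columns). Red is higher and blue lower in the first-named group, white circles mark calls at an adjusted p below 0.05, and grey marks members not tested; colours end at -2 and 2. MMP3 and ADAMTS2 have opposite colours with ADAR siRNA and with ADARB1 siRNA.

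After ADARB1 siRNA fewer members were called. Of 33 tested, 5 rose and 3 fell against siNC, or 24.2%, beside 16.7% of all genes (8.25% higher and 8.45% lower). The median log2 fold change was 0.06 for the members and -0.00 for all genes. MMP3, MMP2 and MMP28 fell, and ADAMTS2, MMP19, TIMP1, ADAMTS12 and ADAMTS9 rose.

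MMP3 had 3.09, 3.12 and 3.025 CPM with ADARB1 siRNA, against 7.12, 6.55 and 6.67 CPM with siNC. The log2 fold change was -1.14 ± 0.08 (adjusted p = 5.77e-07), a level of 0.45 times the control (95% interval 0.41 to 0.51). ADAMTS2 had 37.8, 39.0 and 39.15 CPM with ADARB1 siRNA and 26.3, 25.8 and 27.15 CPM with siNC, again without overlap (log2 0.55 ± 0.05, adjusted p = 1.83e-06). MMP19 had 12.4, 13.3 and 13.2 CPM with ADARB1 siRNA and 8.15, 7.90 and 9.36 CPM with siNC (log2 0.61 ± 0.08, adjusted p = 6.6e-05).

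TIMP1 had 399.6, 433.4 and 442.9 CPM with ADARB1 siRNA and 306.6, 345.2 and 321.2 CPM with siNC (log2 0.39 ± 0.05, adjusted p = 0.000161), with every ADARB1 siRNA library above the controls. TIMP2 averaged 367.4 CPM with ADARB1 siRNA and 369.0 CPM with siNC, with a log2 fold change of -0.01 ± 0.04 (adjusted p = 0.947; 0.94 to 1.05 times). TIMP3 was at -0.58 ± 0.43 (adjusted p = 0.431). ADAMTS12 had 20.3, 21.7 and 19.1 CPM with ADARB1 siRNA and 14.5, 15.8 and 16.0 CPM with siNC (log2 0.40 ± 0.06, adjusted p = 0.000213).

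MMP2 had 4.02, 4.40 and 3.14 CPM with ADARB1 siRNA and 5.36, 5.37 and 5.59 CPM with siNC (log2 -0.49 ± 0.12, adjusted p = 0.012). MMP28, epilysin, an MMP of epithelia and keratinocytes, changed by -0.24 ± 0.07 (adjusted p = 0.0399) and ADAMTS9 by 0.16 ± 0.04 (adjusted p = 0.0239). These last 3 calls ended when single libraries were left out, with a highest adjusted p of 0.0528 for MMP2 without ADARB1 siRNA replicate 3, of 0.153 for MMP28 without ADARB1 siRNA replicate 2 and of 0.112 for ADAMTS9 without siNC replicate 1. The call of MMP28 also ended without ADARB1 siRNA replicate 3 or siNC replicate 1 or 3, and that of ADAMTS9 without ADARB1 siRNA replicate 1 or 2 or siNC replicate 2. The other 5 calls held. After GC correction 5 members rose and 5 fell, beside 16.7% of all genes called.

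In the genes around them, 4 of 14 activation and clearance genes rose and 3 fell, with SERPINE2 at 0.70 ± 0.08. Of 19 substrates, 5 rose and 1 fell, with the glycoproteins TNC, tenascin C, at 1.22 ± 0.06 and FBN1, fibrillin 1, at 0.65 ± 0.04 and the proteoglycan VCAN, versican, at 0.86 ± 0.06. Both enzymes that put sugars on thrombospondin repeats rose, POFUT2 by 0.38 ± 0.05 and B3GLCT by 0.20 ± 0.06. Of 13 transcription factors, 3 rose and 2 fell, with ETS1 at -0.43 ± 0.05. The shares called were 50% of the activation and clearance genes, 31.6% of the substrates and 38.5% of the transcription factors, beside 16.7% of all genes. The biliary marker sum was 555 to 563 CPM with ADARB1 siRNA and 498 to 537 CPM with siNC, with 2 of 6 tested genes called higher and 1 lower. The mesenchymal sum was 177 to 183 CPM with ADARB1 siRNA and 155 to 166 CPM with siNC, with 3 of 9 tested genes called higher and 0 lower. The hepatocyte sum was 54100 to 57050 CPM with ADARB1 siRNA and 62550 to 67380 CPM with siNC, with 7 of 10 genes lower and 0 higher, and the endothelial sum was 195 to 206 CPM with ADARB1 siRNA and 140 to 154 CPM with siNC. Of 3 tested endothelial genes 1 was called higher and 0 lower. The part of these marker shifts in the results was not tested.

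The siRNAs were also set against each other directly. Of 33 members, 11 were higher and 4 lower with ADAR siRNA than with ADARB1 siRNA, or 45.5%, beside 35.7% of all genes (18.8% higher and 16.9% lower). The median log2 difference was 0.19 for the members and -0.01 for all genes. MMP3 differed most by p, with the 10.75, 10.5 and 10.3 CPM of ADAR siRNA against the 3.09, 3.12 and 3.025 CPM of ADARB1 siRNA, a ratio of 3.41 (95% interval 3.04 to 3.82; log2 1.77 ± 0.08, adjusted p = 1.32e-09). ADAMTS2 differed in the other direction (log2 -0.93 ± 0.05, adjusted p = 2.24e-09), and its groups were likewise far apart.

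MMP28 had 20.2, 21.1 and 21.5 CPM with ADAR siRNA and 14.2, 11.4 and 13.1 CPM with ADARB1 siRNA (log2 0.70 ± 0.07, adjusted p = 3.58e-06). ADAMTS12 (0.51 ± 0.06), MMP14 (0.32 ± 0.04), TIMP2 (0.32 ± 0.04), ADAMTS9 (0.36 ± 0.04) and ADAMTS10 (0.71 ± 0.09) were also higher with ADAR siRNA. TIMP1 was lower with ADAR siRNA (-0.17 ± 0.05, adjusted p = 0.0249), and the adjusted p was 0.123 with ADAR siRNA replicate 1 left out, 0.074 with ADARB1 siRNA replicate 2 left out and 0.0853 with its replicate 3 left out. It was 0.0511 after GC correction and 0.0608 in the fit of all 19 libraries, and TIMP3 was at 0.48 ± 0.43 (adjusted p = 0.44). MMP2, which was lower than siNC with either siRNA, had a log2 difference of 0.03 ± 0.12 between the siRNAs (0.86 to 1.21 times; adjusted p = 0.883). Of the 15 calls, 12 held with each library left out, and those of TIMP1, MMP16 and MMP25 did not.

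**Figure D3:**
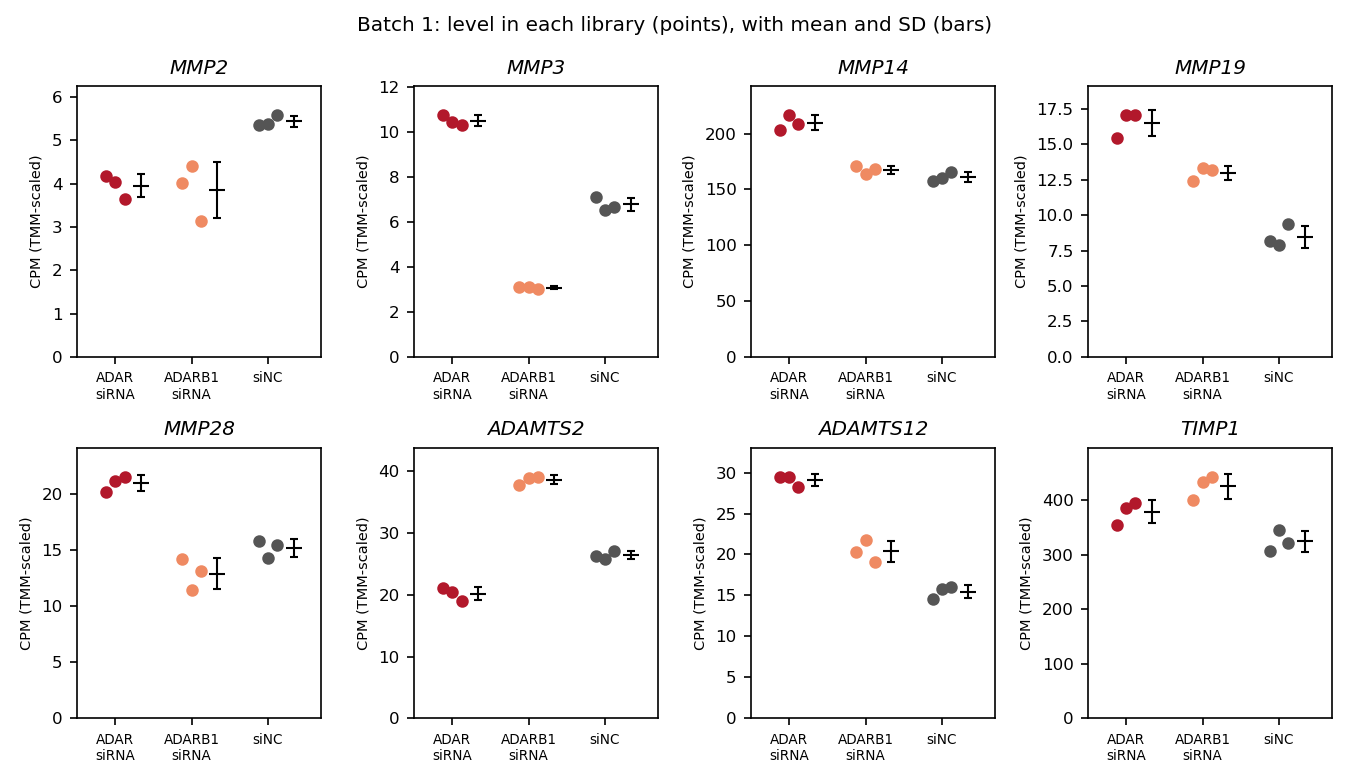
Levels of 8 members in the 9 libraries of batch 1, in CPM on axes that start at 0. Points are libraries and bars give the mean and SD of 3 libraries, for ADAR siRNA, ADARB1 siRNA and siNC from left to right. MMP3 has 3 separate levels, with ADAR siRNA above siNC and ADARB1 siRNA below it, and ADAMTS2 has the reverse order.

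IFNa called 5 members higher and 5 lower of 31 tested, or 32.3%, beside 22.7% of all 20718 genes (11.9% higher and 10.9% lower). The median log2 fold change was -0.17 for the members and -0.02 for all genes. After GC correction 8 members were higher and 1 was lower, beside 19.1% of all genes called. The proteases that rose were ADAMTS5, MMP7, ADAMTS3, ADAMTS6 and ADAMTS20, and MMP24, ADAMTS10, MMP15, ADAMTS7 and MMP11 fell.

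ADAMTS5 had 12.05 and 13.1 CPM with IFNa, against 6.72, 6.58 and 6.35 CPM with siNC. Both IFNa libraries lay well above the controls, with a log2 fold change of 0.94 ± 0.14 (adjusted p = 0.00234; GC-corrected 0.67, adjusted p = 0.0126). ADAMTS5 was the sole member whose call held with each library left out. MMP7, matrilysin, a small secreted protease known from injured bile duct epithelium, had 128.5 and 118.3 CPM with IFNa and 84.1, 81.0 and 80.0 CPM with siNC (log2 0.59 ± 0.09, adjusted p = 0.00237; GC-corrected 0.34, adjusted p = 0.00714). Its groups did not overlap, but the adjusted p was 0.0536 without IFNa replicate 1. Here and below, a fit without 1 IFNa library leaves 1 library with IFNa, assumed to vary like the other groups.

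ADAMTS3, a procollagen propeptidase that also activates the lymphatic growth factor VEGFC, had 8.53 and 7.69 CPM with IFNa and 5.04, 4.63 and 3.83 CPM with siNC (log2 0.84 ± 0.17, adjusted p = 0.00977; GC-corrected 0.63, adjusted p = 0.0147). ADAMTS6, a relative of ADAMTS10, had 2.28 and 2.16 CPM with IFNa and 1.16, 0.940 and 0.733 CPM with siNC (log2 1.19 ± 0.24, adjusted p = 0.011; GC-corrected 0.98, adjusted p = 0.0141). Both calls ended without IFNa replicate 1, at adjusted p of 0.134 and 0.132. ADAMTS20 had a log2 fold change of 0.71 ± 0.19 (GC-corrected 0.51, adjusted p = 0.0556).

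Of the members that fell, MMP24, ADAMTS10, MMP15 and ADAMTS7 have transcripts of 60.6% to 66.0% GC, and none of these 4 was called after GC correction. ADAMTS10 was at -0.79 ± 0.19 (GC-corrected -0.20, adjusted p = 0.0749), MMP24 at -0.51 ± 0.12 (GC-corrected -0.11, adjusted p = 0.488), MMP15 at -0.60 ± 0.17 (GC-corrected 0.05) and ADAMTS7 at -0.56 ± 0.18 (GC-corrected 0.07). The overlapping gene MMP24OS held counts equal to 241% of those of MMP24 in batch 2, so the level of MMP24 depends on how reads were divided.  MMP11, stromelysin 3, had 2 counts with IFNa and 18 counts with siNC, a ratio of 0.091 per scaled depth (95% exact interval 0.0102 to 0.38, counting error only; fitted log2 -3.39 ± 0.99, adjusted p = 0.0341; GC-corrected -2.95). MMP11 passed the filter on low counts only through siNC replicates 2 and 3, where it was highest, so the filter favoured this call. Without IFNa replicate 1 the calls of MMP24, ADAMTS10, MMP15, ADAMTS7, ADAMTS20 and MMP11 ended, with adjusted p of 0.197, 0.225, 0.303, 0.386, 0.173 and 0.295. The calls of MMP15, ADAMTS7, ADAMTS10 and ADAMTS20 ended also without siNC replicate 2 or 3, that of ADAMTS20 without IFNa replicate 2 (0.0698) and that of MMP11 without IFNa replicate 2 (0.11). The count of called members was 5 without siNC replicate 2 or 3, beside 8.96% and 7.42% of all genes. It was 17 without siNC replicate 1, beside 36.2% of all genes. Without IFNa replicate 1 fewer members and fewer of all genes were called.

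TIMP1 had 261.3 and 275.5 CPM with IFNa and 250.2, 243.4 and 223.6 CPM with siNC, a log2 fold change of 0.17 ± 0.09 (adjusted p = 0.175) that was called after GC correction (0.44, adjusted p = 0.013). TIMP2 had 453.6 and 425.9 CPM with IFNa and 492.3, 477.9 and 512.5 CPM with siNC (log2 -0.17 ± 0.09, adjusted p = 0.166; GC-corrected -0.03). TIMP3 had 9 counts with IFNa and 11 with siNC. MMP2 (-0.36 ± 0.16; GC-corrected -0.13), MMP3 (-0.17 ± 0.21; GC-corrected -0.30) and MMP14 (-0.23 ± 0.13; GC-corrected 0.09) did not pass the test. Of the genes around them, 3 of 12 activation and clearance genes rose and 3 fell, with RECK, a membrane-anchored MMP inhibitor, at 0.97 ± 0.16 (GC-corrected 0.81) and the clearance receptor LRP1 at -0.79 ± 0.12 (GC-corrected -0.41). Of 17 substrates 3 rose and 2 fell, with THBS1 at 1.10 ± 0.11 (GC-corrected 0.98). Of 13 transcription factors 1 rose and 2 fell, with JUNB at -0.98 ± 0.19 (GC-corrected -0.38). The shares called were 50% of the activation and clearance genes, 29.4% of the substrates and 23.1% of the transcription factors, beside 22.7% of all genes. The summed level of 6 interferon-induced genes was 2168 to 2233 CPM with IFNa and 52.8 to 72.5 CPM with siNC. The endothelial marker sum was 677 to 749 CPM with IFNa and 443 to 497 CPM with siNC, with CDH5 and CLEC4G at 0 counts with IFNa. Of 3 tested endothelial genes 1 was called higher and 0 lower, and their median log2 fold change was -1.37. The hepatocyte sum was 12150 to 12930 CPM with IFNa and 12960 to 15510 CPM with siNC, with 4 of 10 genes lower and 0 higher, and the biliary sum was 333 to 339 CPM with IFNa and 355 to 402 CPM with siNC. Of 6 tested biliary genes 2 were called higher and 2 lower. The part of these marker shifts in the results was not tested.

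With BX795 more members were lower than higher. Of 31 tested, 5 were higher and 14 lower than siNC, or 61.3%, beside 42.1% of all genes (20.2% higher and 21.9% lower). The median log2 fold change was -0.49 for the members and -0.01 for all genes. After GC correction 6 members were higher and 9 lower, beside 30.2% of all genes called, and 10 of the 19 calls held. MMP2, MMP3, MMP7, MMP14, ADAMTS2, ADAMTS7 and ADAMTSL4 were lower and MMP10 higher under both that correction and the removal of each library. MMP10 entered the test only through the groups given BX795.

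MMP2 had 1.53, 1.60 and 1.62 CPM with BX795, against 5.21, 5.505 and 5.78 CPM with siNC. The log2 fold change was -1.79 ± 0.16 (adjusted p = 3.98e-05; GC-corrected -1.46), a level of 0.29 times the control (95% interval 0.23 to 0.36). MMP14, its activator, had 173.9, 164.4 and 164.6 CPM with BX795 and 253.7, 344.1 and 320.2 CPM with siNC (log2 -0.87 ± 0.11, adjusted p = 0.000465; GC-corrected -0.41). The BX795 libraries were close together and the controls were spread, and the groups did not overlap. MMP3 had 2.00, 1.53 and 1.35 CPM with BX795 and 5.26, 4.095 and 3.75 CPM with siNC (log2 -1.45 ± 0.21, adjusted p = 0.000674; GC-corrected -1.66).

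MMP7 had 51.5, 52.0 and 53.1 CPM with BX795 and 84.1, 81.0 and 80.0 CPM with siNC (log2 -0.65 ± 0.08, adjusted p = 0.000329; GC-corrected -0.98). MMP10, stromelysin 2, lies in the same chromosome 11 group as MMP3 and MMP7 and went the other way. It had 19, 17 and 13 counts with BX795 and 1, 1 and 2 counts with siNC, a ratio of 7.78 per scaled depth (95% exact interval 2.85 to 29.7, counting error only). Its fitted log2 fold change of 2.89 ± 0.65 (adjusted p = 0.00579; GC-corrected 2.67) rests on those 4 control counts. MMP10 passed the filter on low counts only through the groups where it was high, so the filter favoured this call. With IFNa, where MMP10 was not called, it had 20 counts. That is a ratio of 4.1 to the same controls (95% exact interval 1.37 to 16.5, counting error only). These controls stood at 0.0431, 0.0671 and 0.163 CPM, beside 0.453, 0.294 and 0.662 CPM in siNC of batch 1, which was scaled separately.

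ADAMTSL4, which binds fibrillin microfibrils and is mutated in inherited displacement of the lens, had 48.55, 41.5 and 42.15 CPM with BX795 and 150.4, 169.0 and 171.2 CPM with siNC. The log2 fold change of -1.89 ± 0.14 (adjusted p = 1.39e-05; GC-corrected -1.22) had the smallest p of all members in this comparison. ADAMTS7 had 61.2, 51.7 and 51.9 CPM with BX795 and 115.6, 153.2 and 151.3 CPM with siNC (log2 -1.35 ± 0.16, adjusted p = 0.000268; GC-corrected -0.49). The pseudogene copy ADAMTS7P1 held counts equal to 14.9% of those of ADAMTS7 in batch 2, so its level depends on how reads were divided. ADAMTS2 had 98.9, 94.0 and 95.3 CPM with BX795 and 141.5, 173.6 and 173.2 CPM with siNC (log2 -0.76 ± 0.11, adjusted p = 0.00061; GC-corrected -0.39).

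MMP15, a membrane-type MMP rich in GC, was at -1.03 ± 0.15 (adjusted p = 0.000879) but at -0.14 (adjusted p = 0.108) after GC correction. TIMP1 had 174.2, 162.6 and 173.5 CPM with BX795 and 250.2, 243.4 and 223.6 CPM with siNC, without overlap (log2 -0.49 ± 0.08, adjusted p = 0.00116), and its GC-corrected value was -0.11 (adjusted p = 0.406). TIMP2 had 440.7, 480.9 and 465.7 CPM with BX795 and 492.3, 477.9 and 512.5 CPM with siNC (log2 -0.10 ± 0.08, adjusted p = 0.33; 0.84 to 1.04 times; GC-corrected 0.09). TIMP3 had 11 counts in each group. ADAMTS5 (0.44 ± 0.13; GC-corrected 0.10), ADAMTS6 (0.78 ± 0.23; GC-corrected 0.50), ADAMTS12 (0.46 ± 0.13) and ADAMTS20 (0.71 ± 0.18; GC-corrected 0.43) were called higher beside MMP10, and of these ADAMTS12 alone was still called after GC correction (0.39, adjusted p = 0.0173). The calls of ADAMTS12, ADAMTS5 and ADAMTS6 ended with single libraries left out, with adjusted p of 0.0655 for ADAMTS12, 0.0544 for ADAMTS5 and 0.0669 for ADAMTS6 without BX795 replicate 2, and of 0.0523 for ADAMTS5 and 0.0611 for ADAMTS6 without BX795 replicate 3. MMP28 (-0.61 ± 0.16) and ADAMTS10 (-0.59 ± 0.17) changed sign with the GC correction, to 0.14 (adjusted p = 0.487) and 0.22 (adjusted p = 0.0202).

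**Figure D4:**
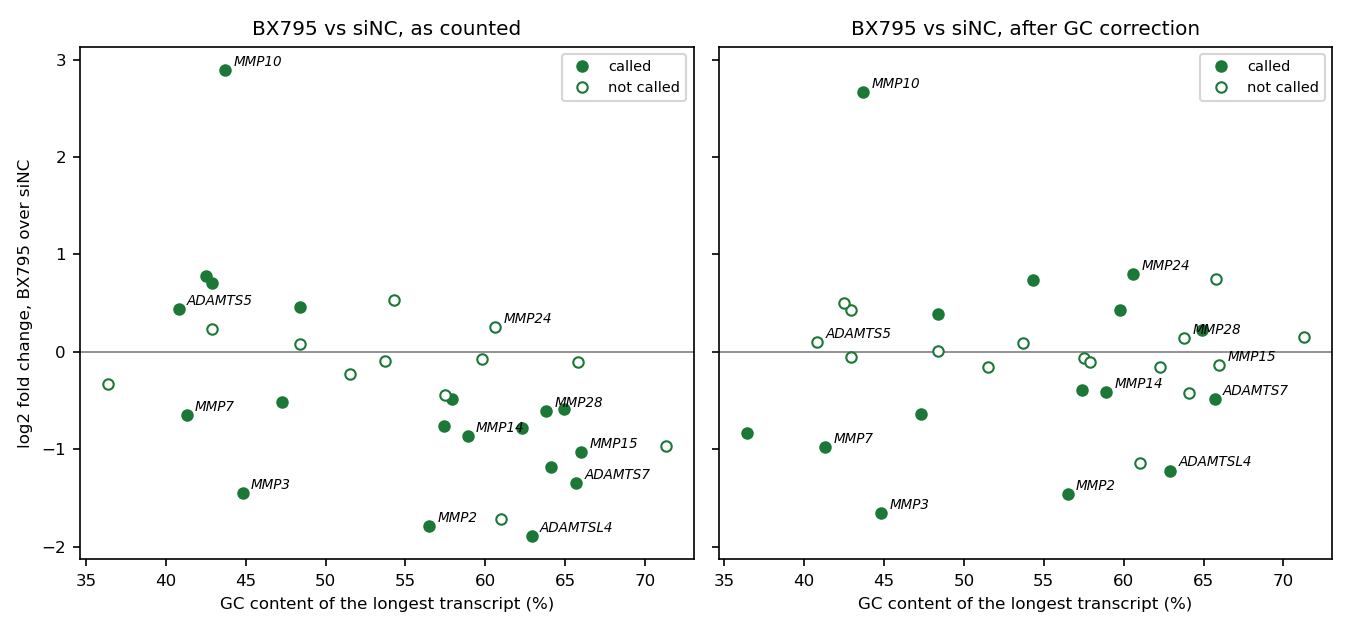
Log2 fold change of the 31 tested members with BX795 over siNC of batch 2 against the GC content of the longest transcript, as counted (left) and after GC correction (right). Filled points were called at an adjusted p below 0.05. The GC-rich members MMP15, MMP28 and ADAMTS7 lie nearer 0 on the right, while MMP2, MMP3, MMP7 and ADAMTSL4 stay low and MMP10 stays high.

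Around them, 2 of 12 activation and clearance genes rose and 4 fell with BX795. TFPI2, a matrix-bound inhibitor of plasmin and other serine proteases, rose by 2.07 ± 0.11 (GC-corrected 1.70). SERPINE2 was at -0.68 ± 0.12 (GC-corrected -1.02) and LRP1 at -0.61 ± 0.10 (GC-corrected -0.10, adjusted p = 0.462). Of 17 tested substrates 0 rose and 6 fell, with the collagen-binding protein SPARC at -1.22 ± 0.08 (GC-corrected -1.34) and COL3A1 at -1.44 ± 0.19 (GC-corrected -1.33). HSPG2, perlecan, was at -0.65 ± 0.10, with the opposite sign after GC correction (0.14, adjusted p = 0.368). Of 13 transcription factors 1 rose and 7 fell. The AP-1 members FOSB (-1.28 ± 0.15; GC-corrected -0.91) and JUN (-0.86 ± 0.17; GC-corrected -0.51) fell and FOSL2 (0.61 ± 0.08; GC-corrected 0.79) rose. The share called was 61.5% of the transcription factors and 50% of the activation and clearance genes, while that of the substrates, 35.3%, was below the 42.1% of all genes.

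The summed level of mesenchymal markers was 286 to 289 CPM with BX795 and 419 to 436 CPM with siNC, with 3 of 9 tested genes higher and 5 lower. That of biliary markers was 221 to 225 CPM with BX795 and 355 to 402 CPM with siNC, that of leukocyte markers 25.1 to 27.55 CPM with BX795 and 38.4 to 43.9 CPM with siNC, and that of endothelial markers 655 to 699 CPM with BX795 and 443 to 497 CPM with siNC, where CDH5, CLEC4G and STAB2 had 0 counts with BX795. Of 6 tested biliary genes 2 were called higher and 3 lower. Of 3 tested endothelial genes 1 was called higher and 0 lower, and their median log2 fold change was -0.17. The hepatocyte sum was 15860 to 16980 CPM with BX795 and 12960 to 15510 CPM with siNC. Of 10 hepatocyte genes 3 were called higher and 3 lower, and their median log2 fold change was -0.22. The part of these shifts in the protease results was not tested.

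With BX795 and ADAR siRNA together, 6 members were higher and 14 lower than siNC of 31 tested, or 64.5%, beside 33.0% of all genes (16.9% higher and 16.0% lower). The median log2 fold change was -0.41 for the members and -0.03 for all genes. After GC correction 9 were higher and 11 lower, beside 28.4% of all genes called. This comparison shares its controls with that of BX795 alone. MMP2, MMP7, MMP14, ADAMTS2, ADAMTS7, ADAMTSL4 and MMP10 were called under the GC correction and with each library left out. MMP10 again entered the test only through the groups given BX795.

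MMP2 had 1.04 and 1.13 CPM with BX795 and ADAR siRNA, against 5.21, 5.505 and 5.78 CPM with siNC (log2 -2.33 ± 0.18, adjusted p = 1.84e-05; GC-corrected -2.06), a level of 0.20 times the control. ADAMTSL4 had 77.25 and 55.7 CPM with both agents and 150.4, 169.0 and 171.2 CPM with siNC (log2 -1.30 ± 0.16, adjusted p = 0.000251; GC-corrected -0.76). MMP10 had 35 and 67 counts with both agents and 4 counts over the 3 controls, a ratio of 21.5 per scaled depth (95% exact interval 8.16 to 80.6, counting error only; fitted log2 4.29 ± 0.63, adjusted p = 0.000708; GC-corrected 4.10).

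MMP3 was at -0.96 ± 0.22 (adjusted p = 0.00869; GC-corrected -1.12), a call that ended without replicate 1 (0.0512) or 2 (0.0618) of the combined treatment. MMP14 was at -0.80 ± 0.13 (GC-corrected -0.42), MMP7 at -0.49 ± 0.09 (GC-corrected -0.78), ADAMTS2 at -0.74 ± 0.12 (GC-corrected -0.43) and ADAMTS7 at -1.22 ± 0.18 (GC-corrected -0.52). ADAMTS13, which cuts von Willebrand factor and is made in liver by stellate cells, had 3.72 and 2.38 CPM with both agents and 7.54, 6.24 and 11.5 CPM with siNC (log2 -1.46 ± 0.29, adjusted p = 0.00406; GC-corrected -0.87, adjusted p = 0.0315). Its overlapping neighbour REXO4 held counts equal to 322% of its own in batch 2, and the call ended without replicate 2 of BX795 with ADAR siRNA (adjusted p = 0.067). TIMP1 had 178.1 and 182.3 CPM with both agents and 250.2, 243.4 and 223.6 CPM with siNC (log2 -0.41 ± 0.09, adjusted p = 0.00566; GC-corrected -0.09, adjusted p = 0.555), and its adjusted p was 0.0549 without the same replicate. TIMP2 was at 0.08 ± 0.08 (adjusted p = 0.485; GC-corrected 0.24), and TIMP3 had 1 count with both agents and 11 with siNC. Without that replicate, which left 1 library of the combined treatment, fewer members and fewer of all genes were called.

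In the wider lists, 2 of 12 activation and clearance genes rose and 6 fell with both agents, with TFPI2 at 1.74 ± 0.12 (GC-corrected 1.41). Of 17 substrates 1 rose, THBS1 at 1.13 ± 0.11 (GC-corrected 1.00), and 6 fell, led by SPARC (-1.20 ± 0.10; GC-corrected -1.27) and COL3A1 (-2.48 ± 0.23; GC-corrected -2.38). Of 13 transcription factors 2 rose and 4 fell. The shares called were 66.7%, 41.2% and 46.2% of these 3 lists, beside 33.0% of all genes. The mesenchymal marker sum was 254.5 to 260 CPM with both agents and 419 to 436 CPM with siNC, with 3 of 9 tested genes higher and 4 lower. The hepatocyte sum was 10160 to 12720 CPM with both agents and 12960 to 15510 CPM with siNC, and the biliary sum 277 to 306 CPM with both agents and 355 to 402 CPM with siNC. Of 10 hepatocyte genes 2 were called higher and 6 lower, and of 6 tested biliary genes 3 were called higher and 3 lower. The endothelial sum was 664 to 717.5 CPM with both agents and 443 to 497 CPM with siNC, and the leukocyte sum 21.2 to 22.4 CPM with both agents and 38.4 to 43.9 CPM with siNC. Of 3 tested endothelial genes 1 was called higher and 0 lower. The part of these shifts in the results was not tested.

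Against BX795 alone, adding ADAR siRNA called 3 of 31 members, 2 higher and 1 lower, or 9.68%, beside 3.66% of all genes (1.49% higher and 2.17% lower). Whether the wells with BX795 alone held siNC was unstated, so ADAR siRNA and the presence of any siRNA cannot be told apart here. The median log2 fold change was 0.08 for the members and 0.01 for all genes. The GC correction called 5 higher and 1 lower, beside 9.37% of all genes. ADAMTS5 had 5.18 and 4.196 CPM with BX795 and ADAR siRNA, against 8.92, 8.95 and 8.91 CPM with BX795 (log2 -0.93 ± 0.14, adjusted p = 0.00472; GC-corrected -0.88). MMP19 had 25.0 and 23.45 CPM with both agents and 15.1, 15.4 and 14.2 CPM with BX795 (log2 0.70 ± 0.11, adjusted p = 0.00638; GC-corrected 0.69). MMP28 had 19.35 and 15.15 CPM with both agents and 9.85, 9.64 and 8.88 CPM with BX795 (log2 0.87 ± 0.17, adjusted p = 0.0154; GC-corrected 0.73).

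The groups did not overlap for any of these 3 genes, whose sign was the same after ADAR siRNA without BX795 in batch 1. Each call ended with 1 library left out. The adjusted p was 0.0613 for ADAMTS5 without replicate 2 of the combined treatment, and 0.107 for MMP19 and 0.213 for MMP28 without replicate 1 of it, fits that left 1 library of the combined treatment, assumed to vary like the other groups. The call of MMP28 ended also without BX795 replicate 2 (0.0584) or 3 (0.077). TIMP1 (0.08 ± 0.09, adjusted p = 0.71; GC-corrected 0.02) and TIMP2 (0.18 ± 0.08, adjusted p = 0.33; GC-corrected 0.15) did not pass the test. Among the wider lists SERPINE2 (0.69 ± 0.13; GC-corrected 0.75) and THBS1 (1.17 ± 0.11; GC-corrected 1.22) rose and COL3A1 (-1.04 ± 0.22; GC-corrected -1.05) fell. The adjusted p was 0.119 for SERPINE2 without replicate 1 of the combined treatment and 0.178 for COL3A1 without replicate 2 of it. The shares called were 25.0% of the activation and clearance genes and 17.6% of the substrates, beside 3.66% of all genes.

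**Figure D5:**
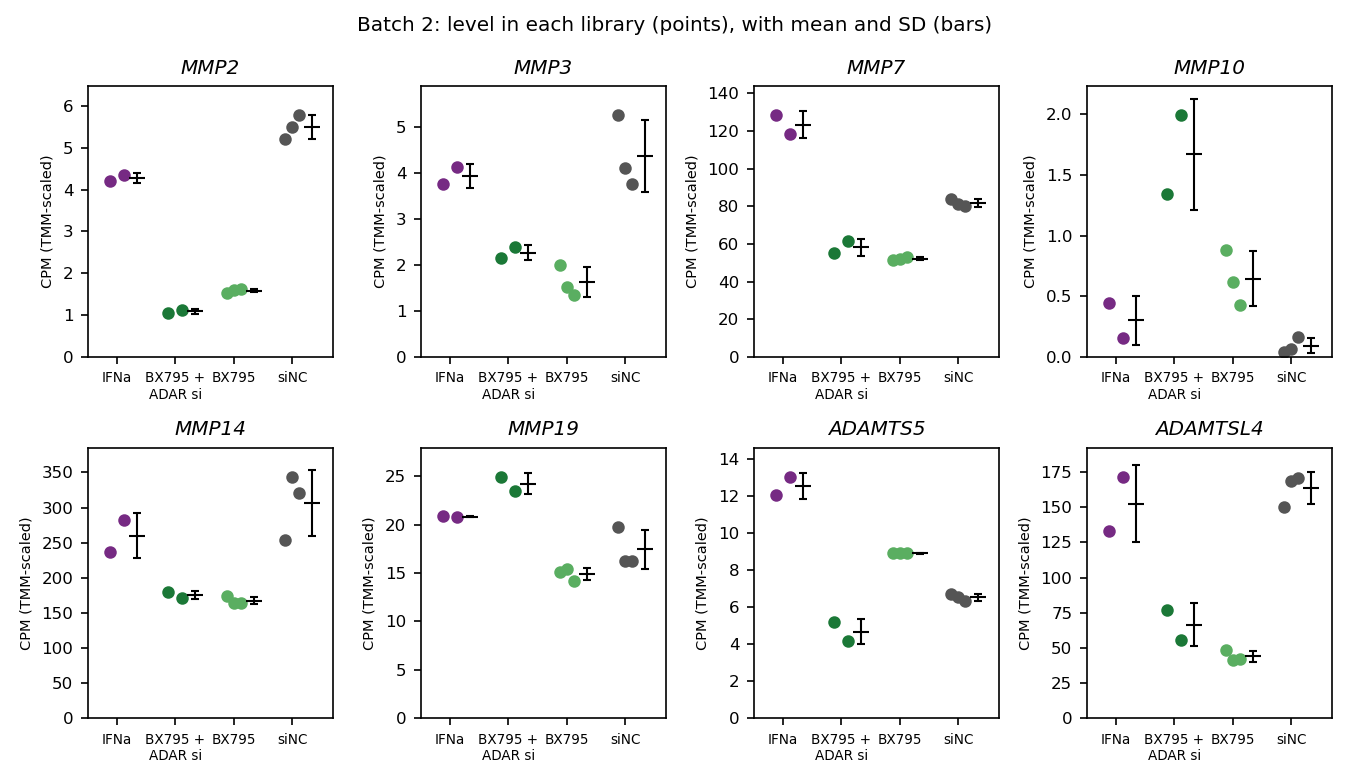
Levels of 8 members in the 10 libraries of batch 2, in CPM on axes that start at 0. Points are libraries and bars give the mean and SD, for IFNa (2 libraries), BX795 with ADAR siRNA (2), BX795 (3) and siNC (3) from left to right. MMP2, MMP3, MMP14 and ADAMTSL4 are low in both BX795 groups, MMP7 and ADAMTS5 are high with IFNa, and MMP10 has its lowest mean in siNC.

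The response to ADAR siRNA was compared with and without BX795 in a contrast over all 19 libraries. It crosses the batches, whose controls differ in hepatocyte marker levels, so batch and BX795 cannot be told apart in it. A possible lack of siNC in the wells with BX795 alone cannot be told apart either. Of 35 members tested, 0 differed upward and 1 differed downward, or 2.86%, beside 3.42% of all 23121 genes (1.42% higher and 2.0% lower). ADAMTS12 was that gene, with a difference of -0.79 ± 0.15 on the log2 scale (adjusted p = 0.0043; GC-corrected -0.77). It had 43.3 and 46.1 CPM with BX795 and ADAR siRNA and 38.4, 45.7 and 41.5 CPM with BX795, a log2 fold change of 0.09 ± 0.14, beside 0.91 ± 0.06 for ADAR siRNA over siNC in batch 1. The call held with each library left out.

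No other member was called in this contrast. TIMP1 was at -0.11 ± 0.10 (0.81 to 1.06 times), TIMP2 at -0.12 ± 0.08 (0.83 to 1.03 times) and TIMP3 at -2.62 ± 1.37. After GC correction 3 members differed upward and 3 downward, beside 6.34% of all genes called. Among 19 tested substrates 6 differed downward and 0 upward, namely TNC (-1.13 ± 0.14), FBN1 (-0.62 ± 0.10), DCN (-0.73 ± 0.13), VCAN (-1.03 ± 0.18), LUM (-0.90 ± 0.19) and SPARC (-0.38 ± 0.09), or 31.6% beside 3.42% of all genes. These substrate values are without GC correction. Of 14 activation and clearance genes 1 differed upward and 2 downward, or 21.4%, and of 13 transcription factors 0 were called.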

How the data were processed

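Total RNA from HepaRG cells was depleted of ribosomal RNA and made into directional libraries, per the labels' protocols. The authors deposited estimated counts per gene, which need not be whole (94.82% lay within 0.005 of a whole number) and were rounded here. STAR, Salmon and GRCh38.p14 are named in the submitters' processing notes, without versions, and no strand setting was stated. With rounding and an unstated strand, reads of overlapping genes may be divided between them.

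Each batch was fitted by itself, since the common biological coefficient of variation was 6.7% in batch 1 and 14.2% in batch 2 (6 residual degrees of freedom each). edgeR 4.0.16 (R 4.3.3, limma 3.58.1) with TMM scaling, filterByExpr (minimum count 10) and the quasi-likelihood test was used, with Benjamini-Hochberg adjustment over all tested genes and calls at an adjusted p under 0.05. CPM are TMM-scaled within a batch, and levels per kb use the union of exons. The contrast of ADAR siRNA responses used all 19 libraries (12 residual degrees of freedom). The fit was checked on counts simulated from its own fitted spread. They had no GC trend, so the check does not cover the trend of the batch 2 controls. SEs were derived from the F statistic of the test. Intervals of fold changes use a normal approximation with these SEs and make no allowance for the few residual degrees of freedom, so they may be too narrow. Intervals of count ratios are 95% exact binomial and cover counting error only.

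The GC correction used a lowess (span 0.3) of each library's deviations on the GC content of the longest GENCODE 29 transcript, known for 88.8% of the genes tested in batch 2. Other alternatives were DESeq2 1.42.0 (size factors or test), no filter, 1 fit of all libraries, a replicate block and leaving out each library. Positions and promoters are RefSeq's on GRCh38.p14. The members and lists were chosen with earlier results of these data known. Named with values were the TIMPs, up to 8 called members of smallest p per comparison, the highest member of each family in controls and up to 3 genes of smallest p per list. Further members were named after their values were seen. The values of 1 listed gene are not reported here.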

Additional observations from a re-analysis of the deposited data

Results flagged for a closer look

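ADAMTS12 differed between the settings in which ADAR siRNA was given. Its response to ADAR siRNA with BX795 minus its response without BX795 was -0.79 ± 0.15 on the log2 scale (edgeR quasi-likelihood test over 19 libraries, adjusted p = 0.0043). Its levels were 43.3 and 46.1 CPM with BX795 and ADAR siRNA and 38.4, 45.7 and 41.5 CPM with BX795 in batch 2, and 29.5, 29.5 and 28.3 CPM with ADAR siRNA and 14.5, 15.8 and 16.0 CPM with siNC in batch 1. The 2 responses come from different batches, so BX795 and batch cannot be told apart. Nor can a possible lack of siNC in the wells with BX795 alone.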

How the results depend on the processing

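The alternatives were compared over 95 called pairs of a member and a comparison and 13 named pairs without a call. Of 1377 alternative values, 1197 kept their side of the threshold, 171 lost the call, 1 gained it and 8 changed sign. A change of sign was counted only where the main or the alternative value was called. That of TIMP2 with BX795 after GC correction was therefore not counted. The 8 counted sign changes were all under GC correction, without and with the replicate block. They were MMP15 with IFNa (0.05 and 0.05), ADAMTS7 with IFNa (0.07 and 0.06), MMP28 with BX795 (0.14 and 0.14) and ADAMTS10 with BX795 (0.22 and 0.22). The controls' GC trend was given with the results. The share of all genes called moved too, also with libraries left out. With IFNa it went from 22.7% to 2.95% under the replicate block and 8.57% under the block with GC correction. For BX795 with ADAR siRNA against BX795 it went from 3.66% to 9.52% in 1 fit, 2.6% with no filter and 9.37% under GC correction. For the contrast it went from 3.42% to 2.04% with no filter, 6.34% under GC correction, 4.8% under both and 5.24% with DESeq2's test. Counts of called members moved by over 1.5 times as follows, and the cause was not tested. With IFNa the count of 10 became 2 under the replicate block, 2 under the block with GC correction and 1 to 17 with a library left out. For BX795 with ADAR siRNA against siNC the count of 20 became 9 to 21 with a library left out. For BX795 with ADAR siRNA against BX795 the count of 3 became 5 in the fit of all 19 libraries, 5 with no filter, 6 under GC correction and 1 to 3 with a library left out. For the contrast of ADAR siRNA responses the count of 1 became 2 with no filter, 6 under GC correction, 5 under the block with GC correction, 3 with DESeq2's test and 1 to 2 with a library left out. Deviations of same-numbered libraries from their group means correlated at -0.08 to 0.11 in batch 1 (median 0.03) and -0.28 to 0.27 in batch 2 (median -0.09). In groups of 2 libraries such deviations mirror each other, so these values cannot decide whether replicate numbers pair the samples. The replicate block gave 22 called members after ADAR siRNA against 19 without it, beside 36.9% and 37.8% of all genes. Batch 2 libraries, at 13.1 to 34.7 M counts, limit what can be seen of members such as MMP10 and TIMP3.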
